A study of Drosophila melanogaster with 18 samples.

Results

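The vacuolar H+-ATPase (V-ATPase) genes of the fly were followed across whole-fly RNA-seq libraries of 3 genotypes. Members were all genes of the Illumina table whose deposited symbol starts with Vha, which gave 32 of its 17972 genes, and the same gene identifiers were looked up in the Nanopore table. There, 31 of the 32 were found among 13969 genes. The exception was Vha44, listed as FBgn0262511 on Illumina and under the newer identifier FBgn0287825 on Nanopore. Its Nanopore values are given under that identifier and are not counted with the other 31. The members were divided by level, with no reference to genotype. A mean of at least 10 FPKM over the 9 Illumina libraries was reached by 26 genes, and 6 low paralogs were under it. This level in whole flies does not show in how many tissues a gene is expressed. FPKM count fragments per gene length and library size. Vha16-5, at 10.3 FPKM, lay just inside that limit and Vha100-4, at 9.93 FPKM, just outside it.

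Every fly carried the driver GR23E10-gal4, a line used to reach sleep-promoting neurons of the central nervous system. The driver control (GR23E10-gal4;+) had no transgene, dec2WT flies carried UAS-dec2WT, and dec2P384R flies carried UAS-dec2P384R, the same transgene with the change found in familial short sleepers. There was no group with a transgene and no driver. Flies were kept in equal light and dark periods and collected 3 h after lights on, and RNA came from whole animals in lots of about 70, per the labels, which call the flies adult and give no age in days and no sex. Each genotype had 3 libraries on each of 2 platforms, Illumina short reads after polyA enrichment and Nanopore direct cDNA, or 18 libraries in all. The driven cells are a small part of a whole fly, so each value is an average over all tissues.

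Illumina libraries held 18057117 to 28293197 reads and Nanopore libraries 1922380 to 4659601 estimated counts. V-ATPase genes took 0.559% to 0.625% of the reads and 0.453% to 0.540% of the Nanopore counts. Summed levels of 12 male accessory gland markers ran from 1930 to 3620 FPKM and those of 33 testis markers from 3982 to 5795 FPKM. The 19 ovary and female markers summed to 26.4 to 35.7 FPKM, and 2 of them had no read in any Illumina library. All 9 neuron markers were detected, with sums of 60.4 to 79.8 FPKM.

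The V-ATPase is a rotary proton pump made of a cytosolic sector, V1, that splits ATP and a membrane sector, Vo, that carries protons. It acidifies lysosomes and endosomes in all cells and synaptic vesicles in neurons, and in flies it also energises the apical, lumen-facing membranes of Malpighian tubule and midgut cells, where it drives fluid secretion and acid production. Many subunits are encoded by several paralogous genes in Drosophila, some of them used broadly and others in few tissues such as the testis.

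In the V1 sector the levels of the leading genes ranged widely. Subunit A, which binds and splits ATP, had 3 paralogs. Vha68-2 (FBgn0263598, chromosome 2L, 12974322 to 12978607, plus strand) stood at 193.5 FPKM on average over 9 libraries, Vha68-1 at 46.4 and Vha68-3 at 34.6. Vha55 (FBgn0005671, chromosome 3R, 12623762 to 12627829, minus strand), the single gene for subunit B of the same ATP-splitting ring, stood at 211 FPKM. The central shaft was led by Vha36-1 (subunit D), at 179 FPKM, and Vha14-1 (subunit F), at 194 FPKM. Of their paralogs, Vha36-2 reached 25.6 FPKM, Vha36-3 13.9 FPKM and Vha14-2 8.46 FPKM. The peripheral stalks were represented by single genes, Vha13 (subunit G) at 401 FPKM, Vha26 (subunit E) at 179 FPKM and Vha44 (subunit C, which leaves the complex when the pump comes apart) at 55.9 FPKM. VhaSFD, the gene for the regulatory subunit H that stops ATP splitting by free V1, stood at 95.5 FPKM.

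In the Vo sector, Vha16-1 (FBgn0262736, chromosome 2R), the main proteolipid of the proton-carrying ring, had the highest level of all members at 429.7 FPKM. Its lowest library was driver control replicate 1 at 355 FPKM and its highest dec2P384R replicate 2 at 524 FPKM. The second ring proteolipid, subunit c'', was led by VhaPPA1-1 at 173 FPKM, and subunit d, which joins the ring to the shaft, by VhaAC39-1 at 115 FPKM. The small subunit e was led by VhaM9.7-b at 117 FPKM. Subunit a, the largest Vo protein, forms the proton path and directs the pump to its membrane. Its leading gene was Vha100-2 (FBgn0028670, chromosome 3R, 18390323 to 18399169, minus strand) at 76.5 FPKM, followed by Vha100-1, known as the neuronal a subunit of fly synapses, at 41.8 FPKM. The accessory membrane protein gene VhaAC45 stood at 167 FPKM.

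**Figure D1:**
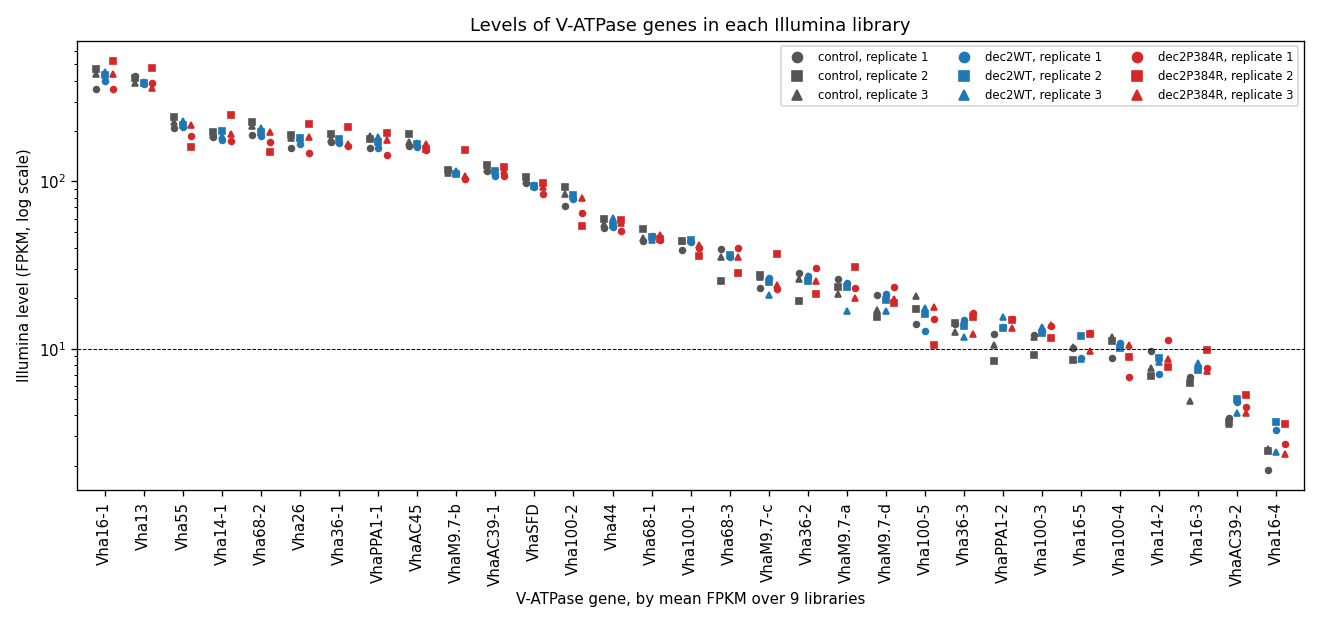
Level of each V-ATPase gene with at least 1 Illumina read (FPKM, log scale) in the 9 Illumina libraries, with colour for genotype and marker shape for replicate, and a dashed line at 10 FPKM. Genes run from Vha16-1 at 429.7 FPKM to Vha16-4 at 2.75 FPKM, and the spread within a genotype is small beside the distance between most genes.

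The 8 subunits with several genes each had a clear leader. The leading paralog was the highest in 9 of 9 Illumina and 9 of 9 Nanopore libraries for all 8. The share held by the leader differed between subunits. Vha16-1 made up 94.0% to 96.5% of the summed FPKM of the 5 subunit c genes, depending on the library, and Vha14-1 94.0% to 97.0% of subunit F. VhaAC39-1 held 95.8% to 97.2% of subunit d and VhaPPA1-1 90.6% to 95.5% of subunit c''. Vha36-1 held 77.6% to 85.3% of subunit D, Vha68-2 67.0% to 74.6% of subunit A and VhaM9.7-b 60.0% to 67.9% of subunit e. Subunit a was the most evenly spread, with Vha100-2 at 44.7% to 53.2% and Vha100-1 at 25.2% to 29.7%. On Nanopore, where a count stands for a molecule and is not divided by length, Vha100-2 held 41.9% to 56.8% and VhaM9.7-b 67.8% to 79.0%.

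Below the leaders, some neighbours in level could not be told apart. The order Vha68-2, Vha68-1, Vha68-3 held in 9 of 9 Illumina libraries, as did Vha36-1, Vha36-2, Vha36-3 and the order of the 5 Vha16 genes. Even so, the ranges of Vha16-5 (8.55 to 12.4 FPKM) and Vha16-3 (4.88 to 9.77 FPKM) overlapped. The full order of the 5 Vha100 genes held in 6 of 9 libraries, because the ranges of Vha100-5 (10.6 to 20.6 FPKM), Vha100-3 (9.22 to 13.9) and Vha100-4 (6.79 to 11.8) overlapped. That of the 4 VhaM9.7 genes held in 7 of 9, with VhaM9.7-c (20.9 to 36.9 FPKM), VhaM9.7-a (16.9 to 30.9) and VhaM9.7-d (15.5 to 23.4) overlapping. The order of minor paralogs was not the same on Nanopore, in CPM (counts scaled to library size, not divided by length). There Vha16-5, at 8.62 CPM, came below Vha16-3 at 9.88 and Vha16-2 at 9.75, and VhaM9.7-a, at 39.5 CPM, above VhaM9.7-c at 30.7. Across the 30 members detected on both platforms, mean FPKM and mean Nanopore CPM ranked alike, with a Spearman coefficient of 0.96 given as a description, since both platforms sampled the same genotypes.

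**Figure D2:**
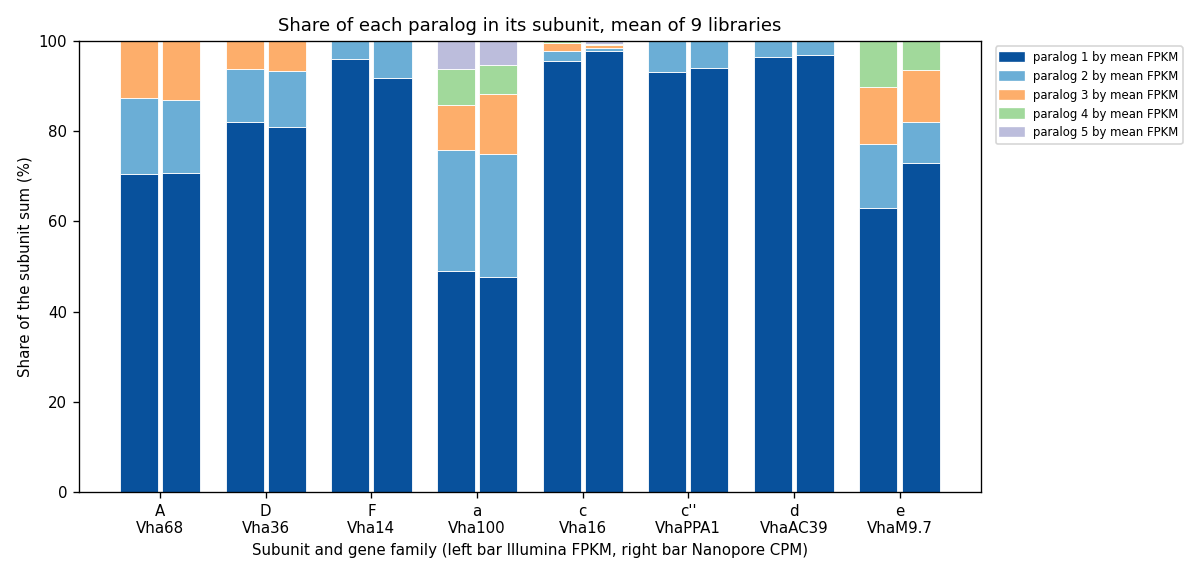
Share of each paralog in the summed level of its subunit (percent) for the 8 subunits with several genes, from the mean of 9 Illumina libraries (left bar, FPKM) and 9 Nanopore libraries (right bar, CPM). The leader holds over 90% in subunits F, c, c'' and d and under 50% in subunit a on both platforms.

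Several paralogs sit side by side in the genome. Vha68-3 (chromosome 2L, 12978786 to 12981293, plus strand) begins 178 bases after Vha68-2. Vha100-4 (chromosome 3R, 18386841 to 18389805) lies 517 bases from Vha100-2, and VhaPPA1-2 (chromosome 3R, 14899606 to 14900277) 2052 bases from VhaPPA1-1, all on the minus strand. The mean level of the members of these pairs differed 5.59-fold, 7.71-fold and 13.3-fold. In all, 7 members overlapped another gene that had reads of its own, among them Vha100-2 (with Vti1b), Vha44 (with Hmgs), VhaPPA1-2 (with CG3817), Vha100-3 (with sano) and Vha100-4 (with cona). Reads of overlapping genes cannot be assigned with certainty because the strand setting is not given in the sources used here.

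Vha16-2 (FBgn0028668, chromosome 3L, 11474958 to 11475552, plus strand), a further proteolipid gene 985 bases from Vha16-3, was detected on Nanopore alone. It had 0 reads in every Illumina library. A limit of 3 reads over its full length stands for 0.184 to 0.273 FPKM per library, counting error only. Whether reads shared with an overlapping gene were counted is not given in the sources used here. If they were not, this value is no upper limit on the level of Vha16-2. Nanopore gave it 46, 32 and 37 estimated counts in the driver control, 38, 41 and 37 for dec2WT and 19, 21 and 26 for dec2P384R, or 9.75 CPM on average. An annotated antisense RNA, asRNA:CR46049, covers 503 of its 595 bases (84.5%) on the other strand and also had no Illumina read. Of 10158 genes with at least 5 CPM on Nanopore, 299 (2.94%) had no Illumina read in any library, and 297 of these 299 overlapped another gene, against 49.5% of all 10158. Whether the overlap accounts for the missing reads was not tested.

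The first comparison asked how dec2P384R flies differed from the driver control in V-ATPase gene levels. None of the 31 members tested on Illumina passed in limma at an adjusted p of 0.05, while 2.8% of all 13418 genes tested did. At an unadjusted p under 0.05 there were 4 members in limma, 4 in edgeR and 5 in DESeq2 on reads recovered from the FPKM values, and neither of the latter tools called a member. Over all genes such a p was found for 1893 of 13418 in limma, 1918 of 13359 in edgeR and 1865 in DESeq2. The total of genes with a DESeq2 p-value was not kept, here and below. Calls over all genes were 410 of 13359 in edgeR and 564 of 15014 with an adjusted p in DESeq2. With a replicate block in limma (a term for the replicate number) 7 members had an unadjusted p under 0.05, against 2277 of 13418 genes. It called 0 members and 504 of all genes. The median log2 fold change of the members was 0.05, against 0.00 over all genes, with 17 members above 0 and 14 below. The 95% interval of each of the 31 lay within a 2-fold change in either direction, and the widest reached 1.69-fold. In whole-fly RNA, fewer cells of a type and less RNA per cell cannot be told apart.

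Summed over all members, the Illumina level was 2779, 3102 and 2959 FPKM in the 3 driver control libraries, 2775, 2919 and 2949 for dec2WT and 2627, 3145 and 2866 for dec2P384R. The groups overlapped, and the lowest and the highest sum were both in dec2P384R.

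Among the 14 leading genes the lowest log2 fold changes in dec2P384R were those of Vha100-2, Vha68-2 and Vha55, none of which passed. Other paralogs of subunits A and a lay on both sides of 0, from −0.28 (Vha100-4) to 0.24 (Vha100-3). Vha68-2 stood at 189, 228 and 213 FPKM in the driver control, 186, 197 and 209.8 for dec2WT and 171, 149 and 199 for dec2P384R. The control and dec2P384R ranges overlapped, with dec2P384R replicate 2 the lowest of the 9 libraries. The log2 fold change was −0.28 (95% interval −0.57 to 0.00, limma adjusted p = 0.355). Vha55 showed the same library order at the bottom, at 208, 243 and 226 FPKM in the control, 210.5, 217 and 230.2 for dec2WT and 186, 162 and 216 for dec2P384R, with a log2 fold change of −0.27 (limma adjusted p = 0.370). Vha100-2 had 71.5, 92.4 and 84.3 FPKM in the control, 78.8, 83.5 and 80.7 for dec2WT and 64.6, 54.0 and 79.1 for dec2P384R, with one dec2P384R library above one control library. Its log2 fold change was −0.34 (−0.66 to −0.02, adjusted p = 0.324 in limma), or 1.26-fold lower, and −0.20 ± 0.13 (SE) without dec2P384R replicate 2.

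The highest log2 fold changes in dec2P384R were those of 3 minor Vo paralogs, VhaPPA1-2, Vha16-3 and VhaAC39-2 (0.30), followed by Vha16-4 (0.27), Vha100-3 and Vha16-5 (0.24 each) and VhaM9.7-d (0.22), and none of them passed. VhaPPA1-2 stood at 12.2, 8.46 and 10.5 FPKM in the driver control, 13.5, 13.2 and 15.4 for dec2WT and 14.9, 14.9 and 13.3 for dec2P384R. All 6 transgenic libraries lay above the 3 controls, of which replicate 2 was the lowest. The log2 fold change was 0.46 ± 0.13 (SE) in dec2P384R, or 1.38-fold, with a limma adjusted p of 0.113, and 0.43 ± 0.13 in dec2WT, with an adjusted p of 0.166. Vha16-3 had 6.81, 6.25 and 4.88 FPKM in the control, 7.75, 7.49 and 8.25 for dec2WT and 7.62, 9.77 and 7.34 for dec2P384R, with folds of 1.35 and 1.30 and adjusted p of 0.171 and 0.299 in limma. VhaAC39-2 had 3.85, 3.64 and 3.52 FPKM in the control, 4.77, 4.99 and 4.10 for dec2WT and 4.49, 5.31 and 4.12 for dec2P384R. In these 2 genes as well no transgenic library fell into the control range. How many of all genes had all 6 transgenic libraries above the 3 controls was not counted, so this order is a description only. They rest on few reads, 70 to 127 per library for Vha16-3 and 95 to 150 for VhaAC39-2.

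These 3 genes were the only members with all 3 dec2P384R libraries above all 3 controls, where 8.16% of all genes tested met that description. No member had all 3 below, against 7.83% of all genes. On Nanopore the same 3 genes overlapped between groups. Vha16-3 and VhaAC39-2 had log2 fold changes of −0.14 and −0.39 there and VhaPPA1-2 one of 0.13, in edgeR. Whether the platforms differ was not tested.

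The second comparison set dec2WT, the unmutated transgene, against the same control libraries. In limma 0 of 31 members passed, with 2.61% of all genes called, and 3 members had an unadjusted p under 0.05, the 3 minor Vo paralogs just described. The edgeR test on recovered reads also gave 3 such members and DESeq2 1, with 0 called by both. Over all genes 1520 of 13418 had an unadjusted p under 0.05 in limma, 1521 of 13359 in edgeR and 1487 in DESeq2. Calls over all genes were 389 of 13359 in edgeR and 514 of 15014 with an adjusted p in DESeq2. The median member log2 fold change was −0.02, against 0.00 over all genes. Among the 14 leading genes the values ran from −0.11 (VhaSFD) to 0.02 (Vha16-1), and in dec2P384R from −0.34 (Vha100-2) to 0.09 (Vha14-1). That difference in range was not tested. Vha100-3 joined the 3 paralogs in having all dec2WT libraries above all controls (4 members, against 9.1% of all genes). VhaSFD alone had them all below (10.9% of all genes), at 97.5, 105.7 and 100.8 FPKM in the control and 92.7, 93.5 and 94.9 in dec2WT. Since both comparisons use the same 3 control libraries, a low or high control moves them together.

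The third comparison set the 2 transgenes against each other and asked whether the mutated and unmutated forms differed in V-ATPase levels. Again 0 of 31 members passed in limma, against 0.783% of all genes. No member had an unadjusted p under 0.05 in limma or edgeR, and 1 did in DESeq2, which called 0. Over all genes 1083 of 13418 did in limma, 1095 of 13359 in edgeR and 1045 in DESeq2. Calls over all genes were 103 of 13359 in edgeR and 179 of 15964 with an adjusted p in DESeq2. The median was 0.02 for members and 0.00 for all genes. VhaPPA1-2, Vha16-3 and VhaAC39-2 had log2 fold changes of 0.03, 0.06 and 0.00. Vha100-2 had the lowest value at −0.31 (−0.63 to 0.01) and Vha16-5, a minor proteolipid, the highest at 0.22. Vha100-1 was the single member with all dec2P384R libraries below all dec2WT libraries (6.16% of all genes), at 39.8, 35.8 and 41.9 against 43.7, 44.7 and 43.8 FPKM. None had them all above, against 7.12% of all genes. The widest interval reached a 1.55-fold difference.

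**Figure D3:**
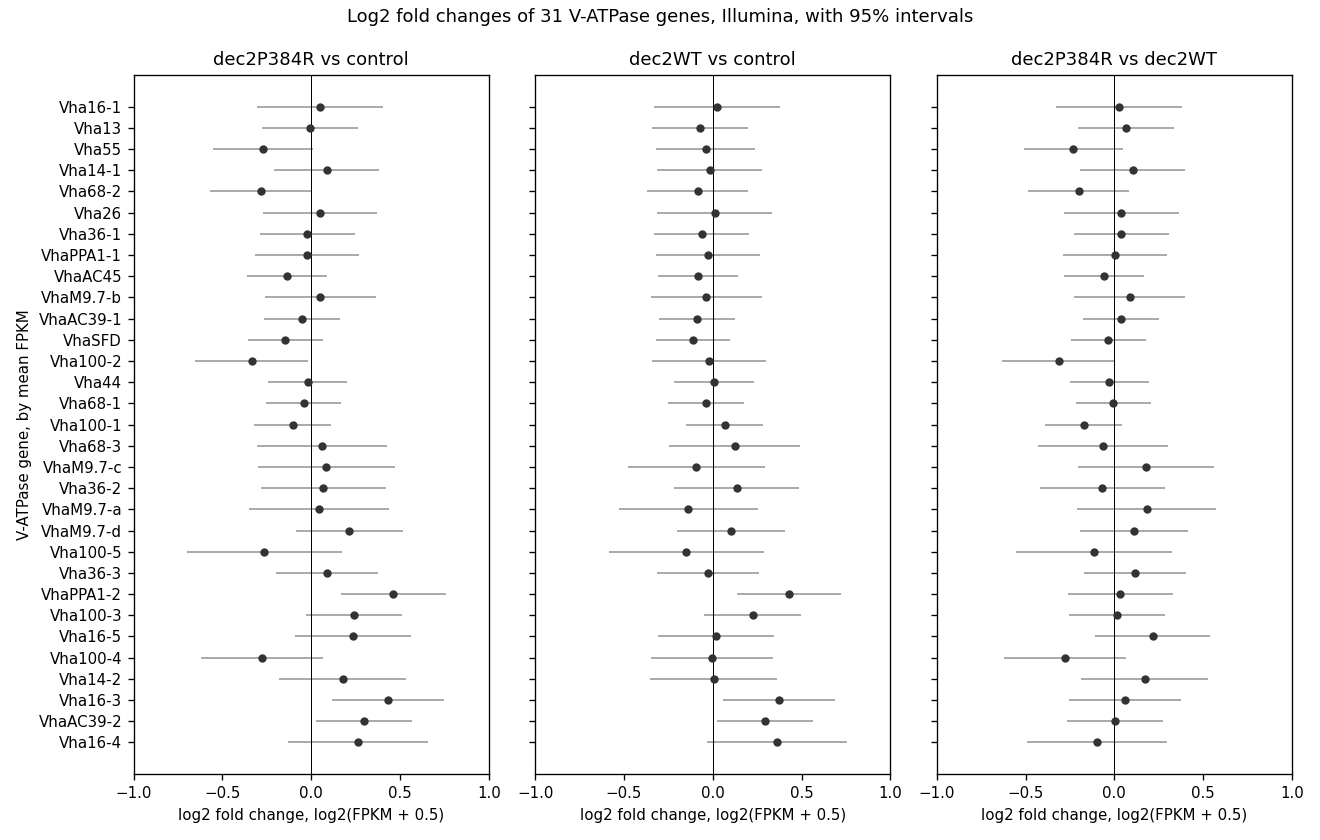
Log2 fold change of log2(FPKM + 0.5) for the 31 V-ATPase genes tested on Illumina in the 3 comparisons (points, limma estimates from 3 libraries per group), with 95% intervals as lines. Intervals of the leading genes cross or touch 0 except that of Vha100-2 in dec2P384R against control, and none reaches −1 or 1.

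Nanopore libraries were tested with edgeR on the rounded estimated counts. In dec2P384R against control 0 of 31 members passed, with 0.474% of all 11393 genes called. In dec2WT against control it was 0 of 31 with 0.799%, and in dec2P384R against dec2WT 0 of 31 with 0.132%. The numbers of members with an unadjusted p under 0.05 were 3, 2 and 2 in edgeR and 2, 2 and 2 in DESeq2, which called none either. Over all genes 1256, 1155 and 819 of 11393 had such a p in edgeR, and 890, 855 and 536 genes in DESeq2. Calls over all genes in DESeq2 were 103 of 12858, 118 of 13391 and 39 of 13653 with an adjusted p. Member medians were −0.06, −0.04 and 0.01, against 0.00, 0.00 and −0.01 over all genes. The 95% interval lay within a 2-fold change for 28, 29 and 30 of the 31 members.

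On Nanopore, 4 members and Vha44 had an unadjusted p under 0.05 in edgeR in at least 1 comparison. Vha100-5, a minor subunit a gene, had 23.9, 25.5 and 27.1 CPM in the driver control, 27.2, 37.1 and 28.0 for dec2WT and 41.8, 42.3 and 33.0 for dec2P384R. All 3 dec2P384R libraries lay above the controls, with a log2 fold change of 0.62 ± 0.17 (SE) and an edgeR adjusted p of 0.181, while on Illumina the value was −0.26. VhaM9.7-b, the leading subunit e gene, had 216, 242 and 223 CPM in the control, 206, 252 and 227 for dec2WT and 295, 271 and 302 for dec2P384R. Its 3 dec2P384R libraries lay above the other 6, at a log2 fold change of 0.35 ± 0.15 against control (edgeR adjusted p = 0.404) and 0.34 ± 0.15 against dec2WT (0.663). On Illumina the first of these was 0.05. How many of all genes had the 3 dec2P384R libraries above the other 6 was not counted, here and for Vha44 below.

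Vha44, under its newer identifier, had 221, 236 and 232 CPM in the driver control, 209, 203 and 226 for dec2WT and 260.0, 278 and 254 for dec2P384R on Nanopore. The dec2P384R libraries were again above the other 6, at 0.20 against control and 0.31 ± 0.14 against dec2WT (edgeR adjusted p = 0.669). The Illumina values were −0.02 and −0.03. Vha16-1, the main proteolipid, had 946, 979 and 1261 CPM in dec2WT against 1249, 1326 and 1544 in the control and 1354, 1393 and 1386 in dec2P384R. The dec2WT range overlapped that of the control and lay below that of dec2P384R. Its log2 fold change in dec2WT was −0.37 ± 0.16 (edgeR adjusted p = 0.464), and 0.02 on Illumina. Vha100-3 had 13.6, 10.4 and 10.2 CPM in the control, 13.7, 21.5 and 17.1 for dec2WT and 17.2, 13.6 and 21.4 for dec2P384R. Its log2 fold changes were 0.59 ± 0.23 in dec2WT and 0.57 ± 0.24 in dec2P384R (edgeR adjusted p = 0.374 and 0.406), with 0.22 and 0.24 on Illumina. On both platforms its 3 dec2WT libraries lay above the 3 controls. On Nanopore the margin was small, with the lowest dec2WT library at 13.75 CPM and the highest control at 13.63. Such an order was found for 9.1% of all genes tested on Illumina and 7.45% on Nanopore. The share with it on both platforms was not counted. Whether the platforms differ in these genes was not tested.

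On Nanopore, 3 members had all dec2P384R libraries above all controls (8.24% of all genes) and 3 all below (8.71%). The counts were 2 (7.45%) and 3 (7.98%) for dec2WT against control, and 3 (5.89%) and 1 (5.49%) for dec2P384R against dec2WT. Of the 30 members tested on both platforms, the sign of the log2 fold change was the same for 14 in dec2P384R against control, for 18 in dec2WT against control and for 15 in the direct comparison. The share over all genes was not counted, so these counts do not show whether V-ATPase genes stand apart.

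Single Illumina libraries held many of the extreme values. Of the 14 leading genes, 7 had their highest value of all 9 libraries in dec2P384R replicate 2 and 6 in driver control replicate 2. The lowest value lay in dec2P384R replicate 1 for 8 of them and in dec2P384R replicate 2 for 3. Of 17 other paralogs, 6 were highest in dec2P384R replicate 1, 4 in dec2P384R replicate 2 and 1 in driver control replicate 2. In driver control replicate 2, 7 of the 17 were lowest. The shares over all genes were not counted, so these values do not show whether V-ATPase genes stand apart.

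The deviation of a gene from the mean of the other 2 libraries of its genotype went with its length in several libraries. Only the members with a mean of at least 10 FPKM were used. In dec2P384R replicate 2 the 12 of up to 1500 exonic bases had a median log2 deviation of 0.31, and the 11 of 2500 bases or more one of −0.19. Over all 13418 genes tested the same medians were 0.13 and −0.18. Short genes that were high there include Vha14-1 (659 bases, 0.44) and VhaM9.7-b (1216 bases, 0.54), but Vha36-2 (1296 bases, −0.38) and VhaM9.7-d (494 bases, −0.19) were low. Long genes that were low include Vha55 (2786 bases, −0.31), Vha68-2 (2759 bases, −0.31), Vha100-2 (3222 bases, −0.40) and Vha100-5 (2918 bases, −0.61), but Vha16-1 (3077 bases) and Vha26 (2926 bases) were high by 0.41 each.

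As a description over these 26 members, Spearman's coefficient of deviation with length was −0.08, −0.41 and 0.76 in the 3 dec2P384R libraries and −0.57, 0.44 and 0.43 in the 3 controls. In dec2WT it was −0.29, −0.25 and 0.42. Over all genes tested the coefficients were −0.07, −0.37 and 0.48 in dec2P384R, −0.42, 0.32 and 0.18 in the control and −0.10, −0.02 and 0.09 in dec2WT. The 3 deviations of a gene within a genotype sum to 0, so a trend in 1 library has its counterpart in the other 2, and these values do not show which library stands apart. Without dec2P384R replicate 2 the log2 fold changes against control were −0.17 for Vha55, −0.18 for Vha68-2 and −0.20 for Vha100-2. The member median was then −0.06, with 11 members above 0 and 20 below. The part of gene length in the member values was not tested.

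**Figure D4:**
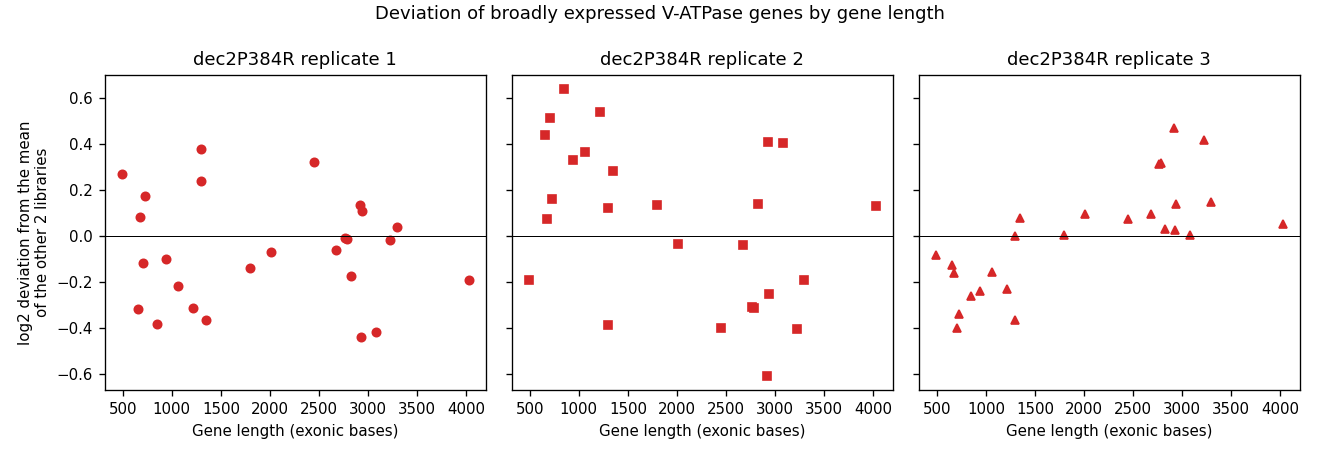
Log2 deviation of each of 26 V-ATPase genes from the mean of the other 2 dec2P384R Illumina libraries, against gene length in exonic bases, with 1 panel per dec2P384R replicate. The genes are those with a mean of at least 10 FPKM, called broadly expressed in the title by level alone. In replicate 2 the shorter genes lie mostly above 0 (median 0.31 up to 1500 bases) and in replicate 3 mostly below (median −0.19). The 3 deviations of a gene sum to 0, so the panels are not independent and do not show which library stands apart.

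Some V-ATPase paralogs are known for expression in the testis, so each member was set against the summed FPKM of 33 testis markers. That sum was 5663, 3982 and 4610 FPKM in the driver control, 5137, 4874 and 5122 for dec2WT and 5795, 4561 and 4938 for dec2P384R, and the groups overlapped. Vha36-2 and Vha68-3, the second D paralog and the third A paralog, followed it closely. Vha36-2 stood at 28.2, 19.3 and 26.0 FPKM in the control, 27.2, 25.4 and 27.4 for dec2WT and 30.4, 21.2 and 25.4 for dec2P384R. Vha68-3 stood at 39.5, 25.3 and 35.4, then 35.5, 36.3 and 35.6, then 39.9, 28.4 and 35.5 FPKM in the same order. Both were lowest in driver control replicate 2 and highest in dec2P384R replicate 1, the libraries with the lowest and the highest testis sum.

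Over the 9 Illumina libraries Pearson's r was 0.92 and Spearman's rho 0.93 for Vha36-2 (exact permutation test, two-sided, Benjamini-Hochberg adjusted over 13386 genes tested without the markers themselves, p = 0.0266 and 0.0416). For Vha68-3 they were 0.90 and 0.88 (exact permutation test, adjusted p = 0.0278 and 0.0807), so that it passed by r and not by rho. These were the 2 of 31 members past the threshold with a positive r, against 3.4% of all genes tested. By rho, Vha36-2 was the single positive one, against 1.51% of all genes. Without the 2 libraries farthest from the median testis sum, driver control replicate 2 and dec2P384R replicate 1, r was 0.78 for Vha36-2 and 0.76 for Vha68-3. VhaM9.7-d (r = 0.82) and Vha14-2 (r = 0.82) did not pass, at an exact permutation adjusted p of 0.102 each.

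All 14 leading genes had a negative r on Illumina, from −0.83 (VhaAC39-1) to −0.23 (Vha13), and none passed by r, with a lowest exact permutation adjusted p of 0.0980. Over all genes 0.545% passed with a negative r. At an unadjusted exact permutation p under 0.05 there were 10 of the 31 members with a negative r, against 5.87% of all genes. With a positive r there were 5, against 10.9%. Whether members differ from all genes in this was not tested. Without the same 2 libraries, 3 of the 14 had a positive r, namely Vha55 (0.29), Vha68-2 (0.19) and Vha100-2 (0.14). By rho, Vha26 passed at −0.93 (exact permutation adjusted p = 0.0416), against 0.291% of all genes with a negative rho. Of the 17 other paralogs 10 had a positive r, among them VhaAC39-2 at 0.13 and Vha16-3 at 0.17, and over all genes 47.7% did.

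With each value taken as its difference from the genotype mean, r was 0.93 for Vha36-2 (exact permutation within genotypes over 216 arrangements, unadjusted p = 0.0278) and 0.91 for Vha68-3 (exact permutation, unadjusted p = 0.0556). In all, 3 of 31 members had an unadjusted p under 0.05 with a positive r within genotypes, against 7.72% of all genes, and 5 with a negative r, against 4.18%.

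On Nanopore no member and no other gene passed by r or rho (0.0% of 11362 genes). At an unadjusted exact permutation p under 0.05 there were 0 members with a positive r, against 4.88% of all genes, and 2 with a negative r, Vha55 and VhaSFD, against 4.61%. Vha36-2 and Vha68-3 had an r of 0.39 and 0.30 over the 9 libraries against the testis sum in CPM. Of the 13 leading genes 5 had a positive r there and 8 a negative one, with Vha16-1 at 0.45 and VhaAC39-1 at 0.03. Whether the platforms differ in this relation was not tested.

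**Figure D5:**
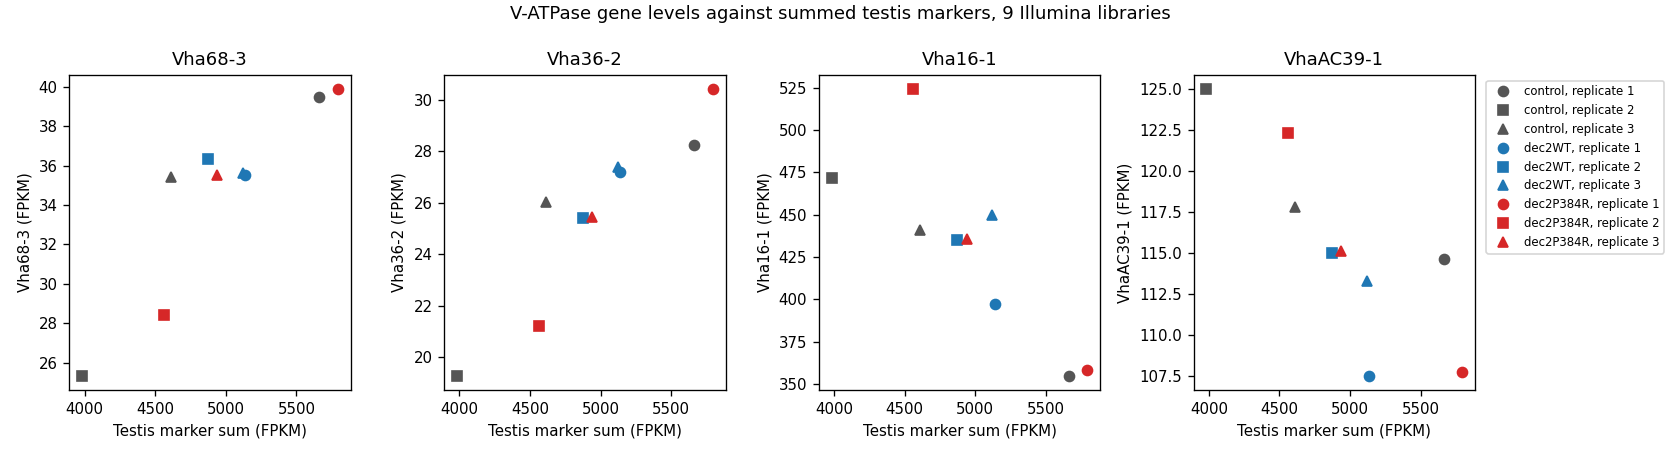
Level of 4 V-ATPase genes (FPKM) against the summed level of 33 testis markers (FPKM) in the 9 Illumina libraries, with colour for genotype and marker shape for replicate. Vha68-3 and Vha36-2 rise from driver control replicate 2 at 3982 FPKM to dec2P384R replicate 1 at 5795 FPKM, Vha16-1 and VhaAC39-1 run the other way, and the genotypes are mixed along the axis.

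Other genes of the pathway were read from lists of known function, whose counts stand beside the 2.8% of all genes called in dec2P384R and the 2.61% called in dec2WT against control on Illumina. Of 6 V-ATPase accessory and regulatory genes, none passed in any of the 6 tests. They include ATP6AP2, an accessory protein of the assembled pump at 173 FPKM, the assembly factors Rbcn-3A and Rbcn-3B at 9.78 and 10.2 FPKM, and Mitf, the transcription factor of lysosomal and V-ATPase genes, at 14.5 FPKM. Their median log2 fold change on Illumina was −0.07 in dec2P384R and −0.01 in dec2WT against control. Of 21 lysosomal enzyme and membrane protein genes tested, 1 rose against control on Illumina and 20 did not pass. It was Gba1b, a glucocerebrosidase gene, 1.74-fold higher in dec2P384R (limma adjusted p = 0.00434) and 1.70-fold higher in dec2WT (0.00558). No gene of that list passed on Nanopore or between the transgenic groups.

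None of 18 ion transporter genes of epithelia that use the pump passed in any test, with Illumina medians of −0.11 in dec2P384R and −0.03 in dec2WT against control. The same held for the 5 vesicular transmitter transporter genes, whose carriers run on the proton gradient of synaptic vesicles, with medians of −0.06 and 0.09. Among markers of the tissues richest in the pump, 1 of 11 Malpighian tubule genes fell in dec2P384R on Illumina, Oatp58Db, by 1.13 on the log2 scale (limma adjusted p = 0.00397). Of 14 midgut genes 2 fell there, the trypsin genes gammaTry, which fell by 2.64 on the log2 scale, and deltaTry, which fell by 1.96. In dec2WT these 2 and alphaTry fell, and no Malpighian tubule gene of the list passed. The Malpighian list summed to 829 to 995 FPKM in the control, 768 to 946 in dec2WT and 734 to 904 in dec2P384R. The midgut list summed to 12608 to 14994, 10084 to 11369 and 9737 to 13205 FPKM in the same order, with dec2WT alone wholly below the control. On Nanopore the midgut sums of the groups overlapped, at 10145 to 13797, 8438 to 11844 and 11300 to 12668 CPM. The sums were not tested. Single genes weighed heavily in the Illumina sums of both lists, with Cyp6g1 at 489 FPKM and alphaTry at 4032 FPKM on average over the 9 libraries. In dec2P384R against control on Illumina, 1 of 32 testis markers tested rose and 1 fell (vis and achi, a pair of adjacent near-identical genes whose reads are uncertain), 1 of 11 accessory gland markers fell (Sfp24Ba), and 0 of 9 ovary and female and 0 of 9 neuron markers passed in limma. In dec2WT, 2 of 11 accessory gland markers (Sfp24Ba and Sfp93F) and 1 of 9 ovary and female markers (Cp7Fb) fell. Between the transgenes on Illumina, Cp7Fb was higher in dec2P384R, and Oatp58Db, gammaTry and deltaTry were lower. On Nanopore gammaTry fell in both groups against control, deltaTry in dec2P384R, and alphaTry and Cp7Fb in dec2WT. Oatp58Db was lower there in dec2P384R than in dec2WT. What part these tissues had in the member values was not tested.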

How the data were processed

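RNA of 18 whole-fly libraries was measured, 3 per genotype on each platform, and the labels do not say whether both platforms used the same RNA. Tools listed in the submitters' processing notes, with no role, are Salmon, minimap2, DESeq2, HISAT2 and featureCounts 1.5.0-p3, and the genome build is not given in the sources used here. Coordinates are printed as deposited, and for all 32 members they were identical to those of the BDGP6.54 annotation. The Illumina table deposited by the authors held FPKM values. Multiplied by gene length and a constant of each library they gave whole reads for 100% of values, within 1e-06, and they already carry median-of-ratios scaling. Nanopore values, as deposited by the authors, were estimated counts per gene, and 55.1% of them had decimals. These were rounded for testing, and CPM here are scaled by TMM. Counts in the authors' comparison tables were deposited for part of the genes and used only to find those constants. Another 36 columns of values per library were not used. The name of an Illumina column has 2 digits of the mutant swapped, and it was used as dec2P384R replicate 2, whose name it otherwise matches.

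Illumina values were tested with limma 3.58.1 on log2(FPKM + 0.5) for genes that reached 0.5 FPKM in 3 or more libraries. Nanopore counts were tested with edgeR 4.0.16 (TMM, quasi-likelihood test). Each fit held the 9 libraries of 1 platform, was two-sided and was adjusted over all genes tested by Benjamini-Hochberg at 0.05. Fold changes on the log2(FPKM + 0.5) scale understate changes of low genes. Alternatives were other pseudocounts, no filter, edgeR and DESeq2 1.42.0 on recovered reads or counts, limma-trend on log2 CPM, 6 libraries alone, a replicate block and each library left out. The relation to the testis marker sum was tested by exact permutation of the 9 libraries, adjusted over all genes tested, and within genotypes, both added after values were seen. The scripts were tested on simulated data. Intervals for single counts cover counting error only, and p-values measure the spread between libraries that the labels call independent biological replicates.

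The members and lists were chosen with earlier results of these data known. The rule was to name members with an adjusted p under 0.05, the highest paralog of each subunit and the order of paralogs, and up to 4 genes past the threshold from each of the other lists. Members named for an unadjusted p under 0.05, for the length pattern or for the testis relation were chosen after their values were seen. In dec2P384R against control on Illumina, same-numbered libraries deviated together (r = 0.26, 0.12 and 0.25 across genes). The main fits held genotype alone and did not use this pairing, which entered only the alternative with a replicate block. In the other comparisons at least 1 number did not reach 0.1. No sequence is printed.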

Additional observations from a re-analysis of the deposited data

How the results depend on the processing

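No V-ATPase gene passed in any of the 90 alternative fits over both platforms. The lowest adjusted p of a member lay between 0.0512 (without driver control replicate 1) and 0.312 in dec2P384R against control on Illumina, between 0.0745 and 0.456 in dec2WT against control, and between 0.213 and 0.990 in the direct comparison. On Nanopore the ranges were 0.116 to 0.515, 0.258 to 0.640 and 0.375 to 0.986. With the replicate block, 0 members passed in all 6 comparisons, and in dec2P384R against control on Illumina the lowest adjusted p was 0.0895 while calls over all genes went from 376 to 504.

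Counts over all genes moved more. When each library was left out in turn they ran from 179 to 354 (376 with all libraries) in dec2P384R against control on Illumina, from 182 to 387 (350) in dec2WT against control and from 56 to 103 (105) in the direct comparison, and on Nanopore from 27 to 70 (54), 49 to 96 (91) and 10 to 17 (15). DESeq2 called 179 genes in the direct comparison on Illumina, and 103 and 39 against edgeR's 54 and 15 on Nanopore in dec2P384R against control and against dec2WT. The cause was not tested. The replicate block gave 473 and 130 calls in the other 2 Illumina comparisons and 39, 68 and 12 on Nanopore. Among members with reads on Illumina, depth was lowest for Vha16-4, at 23 to 47 reads per library. The largest standard error there was that of Vha100-5 (0.20), and that of Vha16-4 was 0.18.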
